A study of Mus musculus with 12 samples.

Results

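Liver RNA from hCAR/hPXR mice given CITCO was compared with liver RNA from Car KO/hPXR mice given CITCO, a comparison that asks what the presence of human CAR changed when the compound, the human PXR and the tissue were shared. The members are every library whose labels give either genotype together with CITCO, 6 of the 12 libraries, 3 in each group. The other 6 libraries came from WT mice given CITCO or corn oil, 3 in each group. The hCAR/hPXR mice carry human CAR and human PXR in place of the mouse receptors. In the Car KO/hPXR mice mouse Car is deleted and PXR is the human gene. By the methods, all mice were adult males, and the altered alleles were made on a C57BL/6NTac background. CITCO was injected intraperitoneally each day for 4 days, and livers were taken on day 5. The dose was taken as 10 mg/kg. The paper's 4-day study also used a higher dose, as in its panel of Cyp2b10 RNA in WT and both humanised genotypes. Its text does not say which dose the sequenced livers received. Neither humanised genotype has a vehicle library here, so that a difference made by the genotype alone and a difference made by the response to CITCO cannot be told apart. Levels are given as CPM, counts scaled to a common library size after TMM normalisation, and a gene was called when its p-value from edgeR's quasi-likelihood fit of all 12 libraries, adjusted by Benjamini and Hochberg, was under 0.05 and its fold change was over 1.5. SE stands for the standard error of a log2 fold change.

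CAR (gene Nr1i3) is a nuclear receptor that is held in the cytoplasm of hepatocytes and enters the nucleus when activated, where it pairs with the retinoid X receptor and drives genes of drug metabolism. Cyp2b genes are its best known targets, and it shares many targets, Cyp3a genes among them, with the related receptor PXR (gene Nr1i2). CITCO is a synthetic agonist that acts on human CAR far more than on the mouse receptor.

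The libraries of the hCAR/hPXR group held 2012805, 1726056 and 1167008 counts, and those of the Car KO/hPXR group 1499487, 1255186 and 1172224. A count of 3 in a library, taken as the floor, stood for 1.55 to 2.5 CPM in these 6 libraries and 1.34 to 2.5 CPM over all 12. This floor covers counting error only. Nr1i2 had counts of 0, 1 and 0 in hCAR/hPXR and of 2, 0 and 0 in Car KO/hPXR libraries, against 114, 113 and 126 in WT mice given CITCO. Nr1i3 had counts of 2, 0 and 6 in hCAR/hPXR and of 3, 2 and 5 in Car KO/hPXR libraries, against 184, 116 and 207 in the same WT mice. Reads were counted against mouse genes, so the human receptor transcripts were not analysed here. The 12 hepatocyte markers were all tested and none was called, with summed levels of 33500 to 51400 CPM in hCAR/hPXR and 43400 to 47300 CPM in Car KO/hPXR libraries. In whole liver, fewer cells of a type and less RNA per cell cannot be told apart.

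Of 8594 genes tested, 50 were called (0.582%), 26 of them higher in hCAR/hPXR (0.303%) and 24 lower (0.279%). For all 50 the 3 libraries of one group lay wholly above the 3 of the other. Such a separation was met in 15.1% of all genes tested, with 8.01% higher and 7.06% lower in hCAR/hPXR. The median log2 fold change of all genes was 0.01, with 51% of them above 0, and 913 genes had an unadjusted p under 0.05. The 26 genes that rose with human CAR included 6 of the list of CAR and PXR responsive P450 genes and 8 of the list of acute phase genes, which holds Mt1 and Mt2. Among the 24 that fell were Acss2 and Elovl5, which are on the fatty acid synthesis list, and Bhmt, Arrdc3 and Chrna4.

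Cyp2b10, the mouse counterpart of human CYP2B6 and the classic gene of CAR activity, had the smallest adjusted p of the comparison. It lies on chromosome 7 of GRCm38 at 25897620 to 25926624. The 212 bases before its first annotated start are shown, with 239 bases from the window upstream of the RefSeq start of Cyp2c29, up to the first annotated start within it, because these P450 genes had the smallest adjusted p-values. The Cyp2c29 bases lie within the longer span that GENCODE gives the gene (39269405 to 39330713). Both were taken from RefSeq (GRCm38.p6, plus strand, 5′ to 3′), and capitals mark matches on either strand to the nuclear receptor hexamers AGGTCA and AGTTCA, of which Cyp2b10 had 0 in this window and Cyp2c29 had 1.
Cyp2b10, chr7:25897408-25897619: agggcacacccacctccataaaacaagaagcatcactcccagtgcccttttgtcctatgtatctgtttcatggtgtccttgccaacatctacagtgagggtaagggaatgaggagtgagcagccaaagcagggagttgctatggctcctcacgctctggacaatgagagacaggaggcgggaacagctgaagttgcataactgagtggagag
Cyp2c29, chr19:39286835-39287073: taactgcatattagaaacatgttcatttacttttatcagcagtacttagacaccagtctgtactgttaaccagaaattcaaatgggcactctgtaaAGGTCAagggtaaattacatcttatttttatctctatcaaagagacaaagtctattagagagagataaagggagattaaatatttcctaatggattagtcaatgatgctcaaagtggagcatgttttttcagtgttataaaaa
The window searched was the 250 bases before each RefSeq start. AGGTCA was present in 14% and AGTTCA in 11.8% of 32851 such windows. Of the 26 genes called higher, 19 had a window, and 4 held AGGTCA and 4 held AGTTCA. Of the 24 called lower, 22 had a window, and 5 held AGGTCA and 3 held AGTTCA. A called gene counted when any of its windows held a match, while the share over all is per window, so these are unlike measures. A direct repeat of AGNTCA with 4 bases between its parts was found in 0 of these windows and in 0.103% of all windows. A match is a description of the letters and not of binding, and the known CAR element of Cyp2b genes lies further upstream than the window.

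Cyp2b10 had counts of 281, 288 and 184 in the hCAR/hPXR libraries, which is 146, 167 and 153 CPM. In the Car KO/hPXR libraries the counts were 1, 0 and 3. The Car KO/hPXR group was at the floor, and Cyp2b10 was at least 67.7-fold higher with human CAR (adjusted p = 5.88e-08, edgeR). In the 50-base words of the last 500 bases of its transcripts 13.9% were shared with other genes, Cyp2b13 and Cyp2b23 among them, and both of these were at 0 counts in all 6 libraries.

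Cyp2c29, an abundant P450 that oxidises arachidonic acid and drugs, had levels of 3580, 2700 and 3240 CPM in hCAR/hPXR and of 647, 601 and 609 CPM in Car KO/hPXR libraries. The groups were far apart, and the spread within the Car KO/hPXR group was small. The fold change was 5.13 (log2 fold change 2.36, SE 0.22, adjusted p = 1.77e-05, edgeR). Cyp2c55, a P450 of low level in liver, had 17.1, 26.6 and 25.9 CPM against 1.27, 3.34 and 0 CPM, with 2, 4 and 0 counts in the Car KO/hPXR libraries (log2 fold change 3.86, SE 0.76, adjusted p = 0.0242). With Car KO/hPXR CITCO replicate 2 left out the log2 fold change of Cyp2c55 was 4.88, and the call held in only 1 of the 6 fits that left out a library. Cyp2c53-ps, annotated as a transcribed pseudogene, had 48, 102 and 27 counts against 0, 0 and 0, which is at least 15.5-fold higher (adjusted p = 0.00063). Cyp2c53-ps overlaps Cyp2c29 on the same strand and 12.5% of the words at its 3′ end occur in Cyp2c29, so its own share of these reads is uncertain. When the counts of Cyp2c29, Cyp2c38, Cyp2c39 and Cyp2c53-ps were summed, an alternative chosen after the data were seen, the log2 fold change was 2.29 (SE 0.22, adjusted p = 2.03e-05).

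Cyp2c37, Cyp2c50 and Cyp2c54 lie side by side on chromosome 19 (39992424 to 40012243, 40089688 to 40113950 and 40037940 to 40073827) and are expressed mainly by hepatocytes around the central vein. Cyp2c50 had 573, 799 and 440 CPM in hCAR/hPXR and 224, 303 and 231 CPM in Car KO/hPXR libraries, a fold change of 2.40 (adjusted p = 0.00561, edgeR). Cyp2c37 was 2.94-fold higher (174 ± 21.7 CPM against 58.8 ± 22.6 CPM, SD, n = 3, adjusted p = 0.0181 by edgeR) and Cyp2c54 2.33-fold higher (197 ± 32.9 CPM against 84.6 ± 23.6 CPM, SD, n = 3, adjusted p = 0.0408 by edgeR). With limma on the deposited values the log2 fold change of Cyp2c54 was 0.99 (adjusted p = 0.0649). These 3 genes shared 13.7% to 30.4% of their 3′ words with each other, and their summed counts had a log2 fold change of 1.3 (SE 0.21, adjusted p = 0.00539).

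The level in WT mice given CITCO set these P450s apart. In WT CITCO libraries Cyp2b10 had 1.3, 4.15 and 1.41 CPM, Cyp2c29 850, 689 and 968 CPM and Cyp2c55 0.649, 2.77 and 0 CPM, which is close to the Car KO/hPXR libraries and far below the hCAR/hPXR libraries. Cyp2c37, Cyp2c50 and Cyp2c54 had 190 ± 13.9, 703 ± 67.1 and 200 ± 46.0 CPM (SD, n = 3) in the WT CITCO libraries, so that there the hCAR/hPXR level was the one close to WT. Cyp2c50 and Cyp2c37 fell in Car KO/hPXR against WT mice given CITCO (log2 fold change -1.48, adjusted p = 0.00201, and -1.68, adjusted p = 0.0219), and Cyp2c54 had -1.24 (adjusted p = 0.0529). Against the same WT mice the hCAR/hPXR group had log2 fold changes of -0.22, -0.12 and -0.02 for Cyp2c50, Cyp2c37 and Cyp2c54 (adjusted p = 0.803, 0.929 and 0.989).

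**Figure D1:**
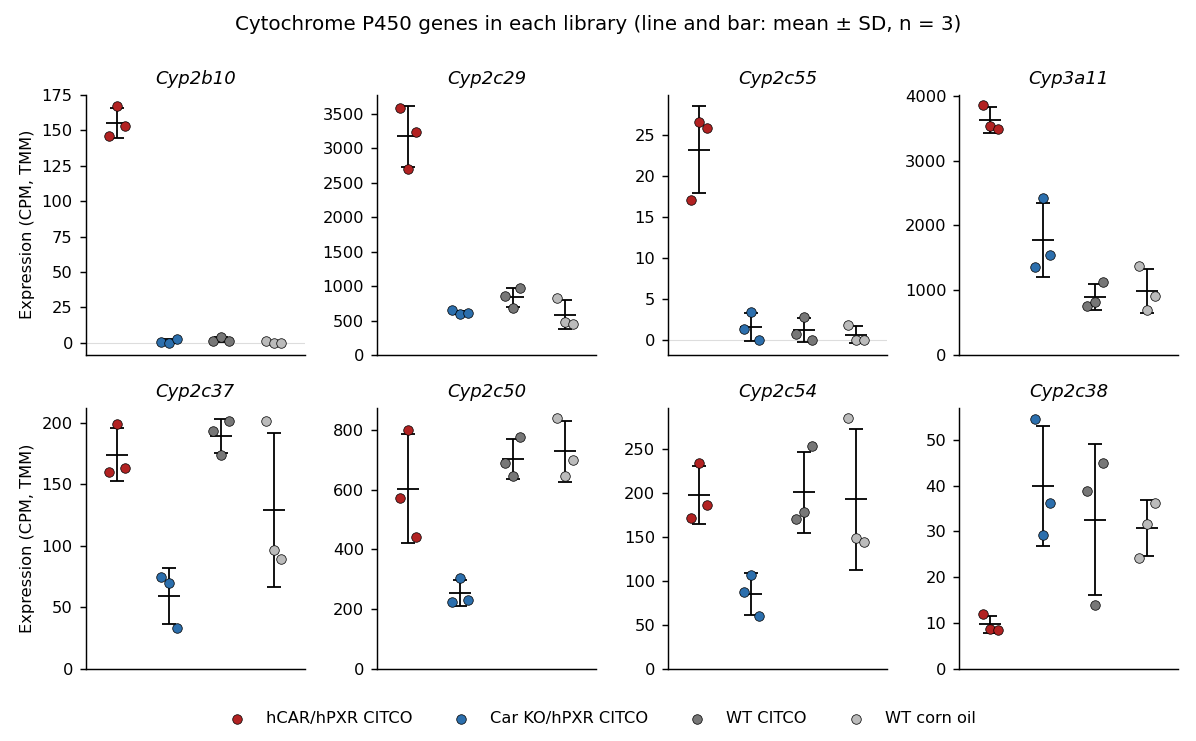
Levels of 8 P450 genes in each library, in CPM on linear axes, for the hCAR/hPXR CITCO, Car KO/hPXR CITCO, WT CITCO and WT corn oil groups. Points are libraries, and bars are the mean and SD of 3 libraries. Cyp2b10, Cyp2c29 and Cyp2c55 were high in the hCAR/hPXR group alone, while Cyp2c37, Cyp2c50 and Cyp2c54 were lowest in the Car KO/hPXR group, Cyp3a11 was highest in the hCAR/hPXR group, and Cyp2c38 was lowest in the hCAR/hPXR group.

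The direction was not shared by all members of the Cyp2c family. Cyp2c38, on chromosome 19 at 39389556 to 39463075, fell with human CAR, with 11.9, 8.68 and 8.34 CPM in hCAR/hPXR and 54.6, 29.2 and 36.1 CPM in Car KO/hPXR libraries (log2 fold change -2.04, SE 0.38, adjusted p = 0.0181, edgeR). No 3′ word of Cyp2c38 was found in another gene. The summed level of all 16 Cyp2c genes was 5250 ± 167 CPM (SD, n = 3) against 2210 ± 284 CPM (SD, n = 3), a log2 fold change of 1.25 (SE 0.19, adjusted p = 0.00463).

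Cyp3a11, a major drug-metabolising P450 under PXR and CAR control, lay higher in every hCAR/hPXR library (3860, 3530 and 3490 CPM) than in any Car KO/hPXR library (1360, 2420 and 1550 CPM), but was not called (log2 fold change 1.03, SE 0.25, adjusted p = 0.0673, edgeR). It passed with DESeq2's Wald test (adjusted p = 0.0022). The log2 fold change of Cyp3a11 was 1.31 with Car KO/hPXR CITCO replicate 2, the highest of that group, left out (adjusted p = 0.0405, edgeR). It was not called with replicate 1 or 3 of either group left out. Summed over all 11 Cyp3a genes the log2 fold change was 0.86 (adjusted p = 0.119). Among all CAR and PXR responsive P450 subfamilies 19 of 33 genes were tested, 6 rose, 1 fell and 12 did not pass, and the median log2 fold change was 0.37. Other P450 genes, 25 tested, had no call and a median of -0.23, from -1.39 for Cyp4a14, which hydroxylates fatty acids, to 1.68 for Cyp26a1, which degrades retinoic acid.

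Calls among partners and conjugating enzymes of drug metabolism are given beside a share of 0.582% called over all genes tested. Por, the reductase that passes electrons to P450s, had 412, 494 and 325 CPM in hCAR/hPXR and 274, 244 and 289 CPM in Car KO/hPXR libraries, which did not overlap but missed the threshold (log2 fold change 0.61, adjusted p = 0.141, edgeR). Alas1, the first enzyme of haem synthesis, stood at 0.40 on the log2 scale (adjusted p = 0.734). None of the 18 P450 partners and haem synthesis genes was called. Of 44 conjugating enzymes tested only Ugt2b35, a glucuronosyltransferase, was called, and it was 1.87-fold higher (188 ± 6.18 CPM against 101 ± 23.1 CPM, SD, n = 3, adjusted p = 0.0372 by edgeR). With limma on the deposited values the log2 fold change of Ugt2b35 was 0.74 (adjusted p = 0.0607). Gsta1, a glutathione transferase, had 10.4, 16.2 and 36.7 CPM against 3.81, 0 and 0 CPM and was not called (adjusted p = 0.0835). Ces2e, a carboxylesterase, was the only one of 37 hydrolases and other oxidoreductases called, and it was 1.64-fold lower (adjusted p = 0.0289). The carboxylesterase Ces2a had 305, 481 and 318 CPM against 224, 281 and 264 CPM (adjusted p = 0.312), and the epoxide hydrolase Ephx1 differed by -0.07 on the log2 scale (adjusted p = 0.929).

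The acute phase list had the most calls, ahead of the CAR and PXR responsive P450 list with 6 higher and 1 lower. The liver secretes acute phase proteins in response to inflammatory cytokines, but the called members Mt1, Mt2 and Steap4 are not secreted. Without these members the list would not rank first. Of 28 tested genes 8 rose and none fell, and 20 did not pass. The log2 fold change was above 0 for 27 of the 28, with a median of 1.13, and 18 did not overlap and were higher in hCAR/hPXR. Over all genes tested, 51% were above 0 and 8.01% did not overlap and were higher. Saa4, an apolipoprotein of high density lipoprotein, had 884, 635 and 499 CPM in hCAR/hPXR and 268, 255 and 186 CPM in Car KO/hPXR libraries (fold change 2.85, adjusted p = 0.00502, edgeR). Hp (haptoglobin), which binds free haemoglobin, had 6130, 3180 and 3150 CPM against 1370, 1260 and 1310 CPM (fold change 3.16, adjusted p = 0.00601, edgeR).

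Saa2, a strongly inducible serum amyloid A, was widely spread within the hCAR/hPXR group, with 2140, 387 and 638 CPM in hCAR/hPXR and 36.2, 50.1 and 18.1 CPM in Car KO/hPXR libraries. The log2 fold change of Saa2 was 4.92 with an SE of 0.88 (adjusted p = 0.0131, edgeR), and 3.87 with hCAR/hPXR CITCO replicate 1 left out (adjusted p = 0.0632). Its neighbour Saa1 had 6570, 1070 and 1830 CPM against 185, 381 and 82.1 CPM and was not called (log2 fold change 3.87, adjusted p = 0.0587). Saa1 and Saa2 share 21.9% to 23.7% of their 3′ words, and their summed counts passed (log2 fold change 4.07, SE 0.90, adjusted p = 0.0429). In WT mice given CITCO the levels of Saa2 were 956, 476 and 24.6 CPM, a range that covers levels of both humanised groups.

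Lbp, which hands bacterial lipopolysaccharide to its receptor, was 2.13-fold higher (112 ± 27.6 CPM against 53.1 ± 7.27 CPM, SD, n = 3, adjusted p = 0.0192 by edgeR). Steap4, a metalloreductase, was 3.89-fold higher (adjusted p = 0.0181). Orm2, an alpha-1-acid glycoprotein, had 207, 30.1 and 82.6 CPM against 21.6, 15 and 1.64 CPM (log2 fold change 3.02, adjusted p = 0.0412). Of its 3′ words 36.4% occur in its relatives, and the log2 fold change of Orm2 was 2.06 with hCAR/hPXR CITCO replicate 1 left out (adjusted p = 0.291, edgeR). The summed counts of Orm1, Orm2 and Orm3 missed the threshold (log2 fold change 0.78, adjusted p = 0.226). Lcn2, an iron-carrier binding protein, had 185, 9.84 and 29.2 CPM in hCAR/hPXR libraries against 9.02 ± 4.97 CPM (SD, n = 3) in Car KO/hPXR libraries, an overlap, and was not called (edgeR, adjusted p = 0.13). Among the 6 libraries, hCAR/hPXR replicate 1 was the highest for Saa2, Hp, Orm2, Steap4 and Lcn2.

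The metallothioneins Mt1 and Mt2, small proteins that bind zinc and copper, lie next to each other on chromosome 8 (94179082 to 94180327 and 94172664 to 94173568). Mt2 had 551, 248 and 749 CPM in hCAR/hPXR and 56.5, 40.9 and 21.4 CPM in Car KO/hPXR libraries, a fold change of 12.8 (SE 0.67, adjusted p = 0.0161, edgeR). Mt1 had 508, 231 and 847 CPM against 73.7, 51.8 and 67.3 CPM, a fold change of 8.16 (SE 0.59, adjusted p = 0.0242, edgeR). Both were highest in hCAR/hPXR replicate 3, where Saa2 was not. The WT CITCO levels of 86.9, 43.6 and 91.5 CPM for Mt1 and of 67.5, 21.4 and 52.1 CPM for Mt2 overlapped the Car KO/hPXR levels. Bases before the starts of this pair are shown because they moved together, with capitals at matches on either strand to TGCACNC and TGCGCNC, the letters of the metal response element (RefSeq, GRCm38.p6, plus strand, 5′ to 3′).
Mt1, chr8:94178839-94179081: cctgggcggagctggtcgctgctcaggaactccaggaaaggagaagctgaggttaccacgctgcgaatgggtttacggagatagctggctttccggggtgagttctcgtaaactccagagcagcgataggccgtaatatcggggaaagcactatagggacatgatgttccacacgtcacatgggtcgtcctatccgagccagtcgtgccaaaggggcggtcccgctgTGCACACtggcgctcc
Mt2, chr8:94172368-94172617: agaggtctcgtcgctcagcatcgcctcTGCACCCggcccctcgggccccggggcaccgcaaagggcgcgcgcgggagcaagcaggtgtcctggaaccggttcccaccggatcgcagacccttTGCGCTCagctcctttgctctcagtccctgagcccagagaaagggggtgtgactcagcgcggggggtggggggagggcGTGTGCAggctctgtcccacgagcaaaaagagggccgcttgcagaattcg
Mt1 had 1 match and Mt2 had 3 in the bases shown. Bases downstream of the ends shown were not counted, so these are not totals for either promoter. TGCACNC was present in 10.4% and TGCGCNC in 12.5% of all 250-base windows. Counted per gene over any of its windows, they were present in 5 and 1 of the 19 genes called higher. Among the 22 called lower the counts were 6 and 3.

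**Figure D2:**
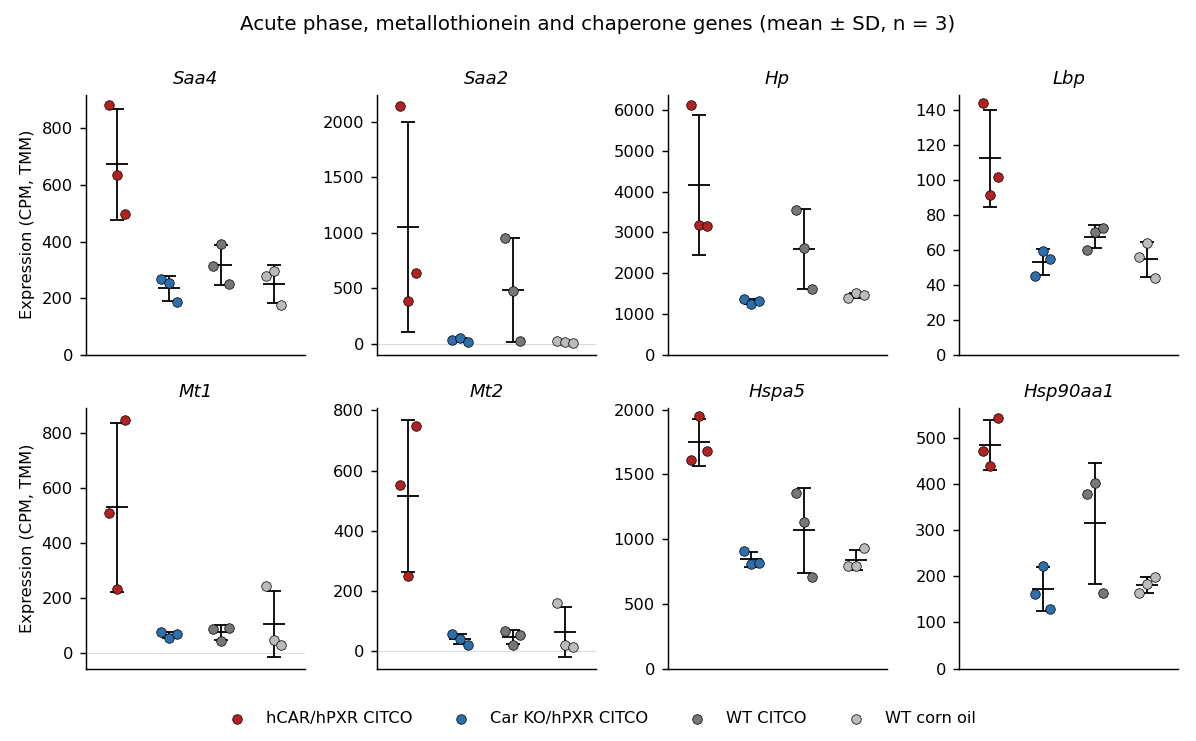
Levels of 4 acute phase genes, Mt1, Mt2 and 2 chaperone genes in each library, in CPM on linear axes, for the 4 groups, with the mean and SD of 3 libraries. All hCAR/hPXR points lie above all Car KO/hPXR points for each gene, and the hCAR/hPXR points of Saa2, Hp, Mt1 and Mt2 are widely spread. WT CITCO points lie between or across the groups for Hp, Saa2 and Hsp90aa1.

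Cxcl1, a chemokine that draws neutrophils, was the only one of 17 tested cytokine signalling genes called. Of the 17, 16 had log2 fold changes above 0 (median 0.48), against 51% of all genes tested. For Cxcl1 the groups did not overlap. It had 67.9, 176 and 91.7 CPM in hCAR/hPXR and 15.2, 50.1 and 19.7 CPM in Car KO/hPXR libraries (fold change 4.01, adjusted p = 0.0251, edgeR), and 7.14, 15.2 and 11.3 CPM in WT CITCO libraries. The log2 fold change of Cxcl1 was 2.01. It ran from 1.51 without hCAR/hPXR CITCO replicate 2 (adjusted p = 0.119, edgeR) to 2.68 with Car KO/hPXR CITCO replicate 2 left out. Socs3, an inhibitor of cytokine signalling, stood at -0.26 on the log2 scale (adjusted p = 0.906). The 246 bases before the start of Cxcl1 are shown because they hold 2 overlapping matches to the NF-kB consensus (capitals). This consensus was present in 3.90% of all windows. Counted per gene over any of its windows, it was present in 2 of the 19 genes called higher and in 2 of the 22 called lower.
Cxcl1, chr5:90890995-90891240: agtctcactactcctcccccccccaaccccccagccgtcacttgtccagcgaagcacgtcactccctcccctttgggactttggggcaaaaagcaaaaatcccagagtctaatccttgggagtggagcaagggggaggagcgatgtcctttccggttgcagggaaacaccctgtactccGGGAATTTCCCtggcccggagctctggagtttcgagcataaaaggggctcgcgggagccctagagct
S100a8, a subunit of calprotectin that neutrophils carry in quantity, had 15, 25.5 and 28.4 CPM against 4.45, 5.84 and 4.93 CPM (fold change 4.46, adjusted p = 0.0242, edgeR). It was 1 of 4 tested neutrophil and monocyte markers, all with log2 fold changes above 0. The summed level of the 12 markers was 97.4 to 128 CPM in hCAR/hPXR and 60.1 to 64.8 CPM in Car KO/hPXR libraries, with Camp at 0 in all 6. Kupffer cell markers summed to 475 to 597 CPM against 396 to 428 CPM, with 0 of 10 called and 7 above 0. The part of such cells in the acute phase and cytokine results was not tested.

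Among chaperones of the cytosol and of the endoplasmic reticulum 1 gene of each list rose in hCAR/hPXR livers. Hsp90aa1, the inducible HSP90 of the cytosol, had 470, 439 and 543 CPM in hCAR/hPXR and 162, 223 and 130 CPM in Car KO/hPXR libraries (fold change 2.82, adjusted p = 0.0114, edgeR). Transcripts of its pseudogenes hold 40.9% of its 3′ words, so its count is uncertain. All 11 tested heat shock genes had log2 fold changes above 0, with a median of 0.81, and 7 of them did not overlap. Hspa5 (BiP), the main chaperone of the endoplasmic reticulum, had 1610, 1950 and 1680 CPM against 911, 807 and 818 CPM (fold change 2.06, adjusted p = 0.0207, edgeR). Of 19 tested genes of endoplasmic reticulum folding and the unfolded protein response 18 were above 0, with a median of 0.48, and 8 did not overlap. The shares over all genes tested, for both lists, were 51% above 0 and 8.01% not overlapping and higher. WT CITCO levels of Hspa5, at 1360, 1130 and 711 CPM, ran from below the Car KO/hPXR libraries to between the groups.

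Acss2, on chromosome 2 at 155517948 to 155585724, makes acetyl-CoA from acetate for lipid synthesis and had the smallest adjusted p of the genes that fell. It had 36.3, 42.8 and 40.9 CPM in hCAR/hPXR and 180, 104 and 152 CPM in Car KO/hPXR libraries, a level 3.65-fold lower with human CAR (adjusted p = 0.000597, edgeR). Elovl5, which lengthens polyunsaturated fatty acids, had 355, 426 and 536 CPM against 1310, 864 and 1090 CPM (2.49-fold lower, adjusted p = 0.0372). Of 16 tested genes of fatty acid synthesis these 2 fell and 14 did not pass. All 16 had log2 fold changes below 0, with a median of -0.76, and 8 did not overlap. The summed level of the list was 4600 to 8050 CPM in hCAR/hPXR and 8030 to 13700 CPM in Car KO/hPXR libraries. It was 3750 to 6190 CPM in WT CITCO libraries, which overlapped hCAR/hPXR, and 5040 to 10500 CPM in WT corn oil libraries, which overlapped both. Over all genes tested, 51% were above 0 and 7.06% did not overlap and were lower.

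Of 26 tested genes of cholesterol synthesis and uptake 23 had log2 fold changes below 0 (median -0.45). Of the 26, 13 did not overlap and were lower in hCAR/hPXR, against 7.06% of all genes tested. The summed level of the list was 3300 to 4070 CPM in hCAR/hPXR and 4320 to 5930 CPM in Car KO/hPXR libraries. It was 3050 to 3780 CPM in WT CITCO libraries, which overlapped hCAR/hPXR, and 3980 to 5060 CPM in WT corn oil libraries, which overlapped both. For Acss2 the hCAR/hPXR level lay nearer to that of WT mice given CITCO (61.3 ± 16.4 CPM, SD, n = 3), and Acss2 rose in Car KO/hPXR against those mice (log2 fold change 1.25, adjusted p = 0.0248, edgeR). Apoa4 and Apoc2, apolipoproteins of triglyceride-rich particles, were 2.63-fold and 2.44-fold lower with human CAR (adjusted p = 0.0051 and 0.0242). Nearly all 3′ words of Apoc2 (95.3%) also occur in the overlapping gene model Gm44805.

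Bhmt, on chromosome 13 at 93616675 to 93637961, passes a methyl group from betaine to homocysteine. It had 593, 688 and 723 CPM in hCAR/hPXR and 2610, 1820 and 1900 CPM in Car KO/hPXR libraries, 3.16-fold lower (adjusted p = 0.00063, edgeR). The WT CITCO libraries lay between, at 890, 1130 and 1320 CPM, and those of WT mice given corn oil, at 2520, 1560 and 2080 CPM, overlapped the Car KO/hPXR group. Its neighbour Bhmt2 was 1.54-fold lower (107 ± 3.69 CPM against 164 ± 5.03 CPM, SD, n = 3, adjusted p = 0.0423 by edgeR), and was named after its values were seen. Bhmt2 was called in 3 of 8 other settings and was not called in the fit of the 6 libraries alone, with no filter on low counts, with thinned counts or with limma. Gamt, which uses a methyl group to make creatine, was 1.76-fold lower (adjusted p = 0.0242).

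Slc2a2 (GLUT2), the glucose carrier of hepatocytes, was 1.66-fold lower (226 ± 22.3 CPM against 376 ± 53.6 CPM, SD, n = 3, adjusted p = 0.0412 by edgeR). The log2 fold change of Slc2a2 missed the threshold in the fit of the 6 libraries alone (adjusted p = 0.0567, edgeR) and with limma (0.0603). Pdk1, a kinase that inhibits pyruvate dehydrogenase, was 2.08-fold lower, and Prkag2, a subunit of the AMP-activated kinase, was 2.37-fold lower (adjusted p = 0.0242 for each). Arrdc3, an arrestin-like adaptor, was 2.81-fold lower (32.9 ± 6.58 CPM against 94.0 ± 11.5 CPM, SD, n = 3, adjusted p = 0.000735 by edgeR). Among 21 tested genes of glucose production and fasting, Slc2a2 was the only call, and the median log2 fold change was -0.16. Igfbp1, an insulin-repressed secreted protein, lay at the other end of that list with 210, 193 and 314 CPM against 47.7, 117 and 139 CPM (log2 fold change 1.25, adjusted p = 0.121).

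Chrna4, a subunit of nicotinic acetylcholine receptors, on chromosome 2 at 181018380 to 181043546, set the Car KO/hPXR libraries apart. It had counts of 11, 11 and 11 in hCAR/hPXR and of 87, 41 and 56 in Car KO/hPXR libraries, and was 6.52-fold lower with human CAR (adjusted p = 0.00124, edgeR). In WT mice given CITCO the counts were 3, 2 and 4, and in WT mice given corn oil the levels were 8.06, 12.0 and 23.5 CPM. Against WT mice given CITCO it rose in Car KO/hPXR mice (log2 fold change 4.42, adjusted p = 4.22e-05), and in hCAR/hPXR mice the log2 fold change was 1.72 (adjusted p = 0.283). Aqp8, a water channel of hepatocytes, had 35.2, 24.9 and 26.7 CPM against 117, 104 and 104 CPM (3.71-fold lower, adjusted p = 0.00422, edgeR).

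**Figure D3:**
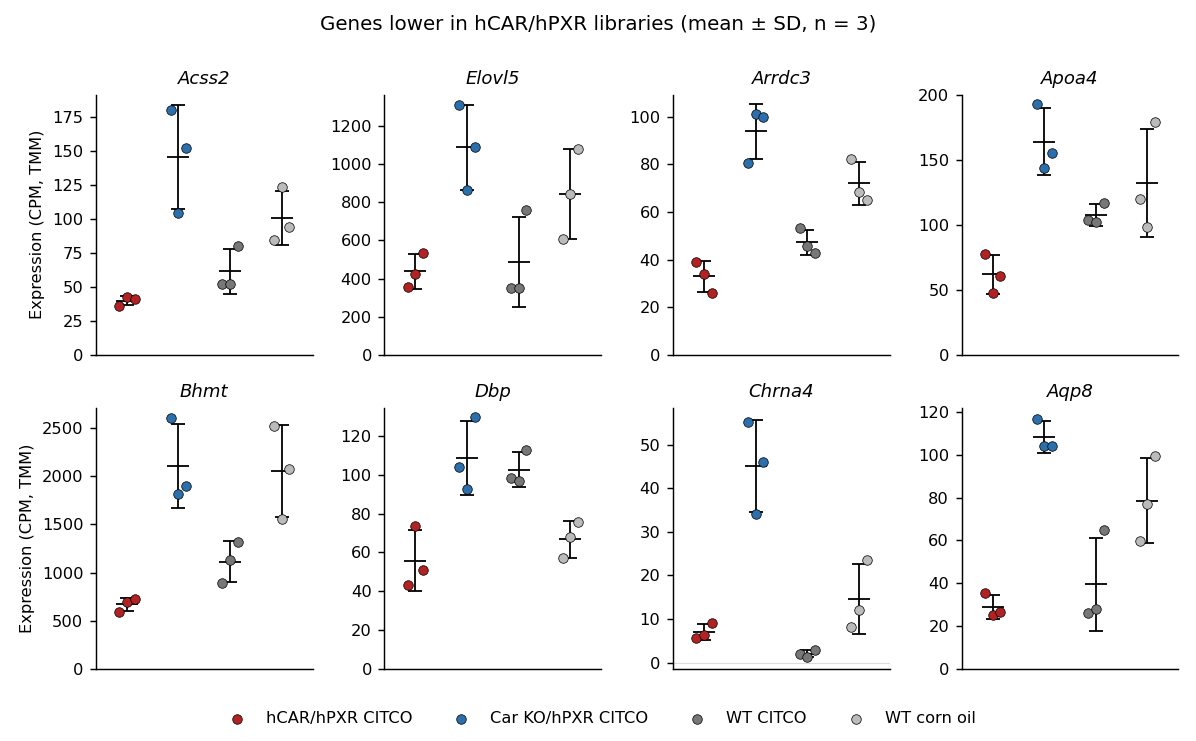
Levels of 8 genes called lower in the hCAR/hPXR group, in CPM on linear axes, for the 4 groups, with the mean and SD of 3 libraries. The Car KO/hPXR points lie above those of WT mice given CITCO for every gene but Dbp. For Acss2, Arrdc3, Apoa4, Bhmt and Dbp the hCAR/hPXR points lie below those of WT mice given CITCO.

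Regulators among the called genes are given with the lists they belong to. Of all genes tested 0.582% were called, the share to set beside each list count. Foxa2, a transcription factor of hepatocyte identity, had 23.3, 19.7 and 19.2 CPM in hCAR/hPXR and 52.1, 41.7 and 40.2 CPM in Car KO/hPXR libraries (2.15-fold lower, adjusted p = 0.0242, edgeR), 53.8, 53.2 and 41.5 CPM in WT CITCO and 25.5, 22.6 and 19.9 CPM in WT corn oil libraries. With thinned counts the log2 fold change of Foxa2 missed the threshold (adjusted p = 0.0713, edgeR). Foxa2 was the only call among 17 hepatocyte transcription factors. Dbp, an output gene of the circadian clock, was 1.94-fold lower (adjusted p = 0.039), the only call among 18 tested clock genes, of which 14 were below 0 (median -0.40). The call of Dbp was lost in the fit of the 6 libraries alone and with limma, in which the log2 fold change of Dbp had an adjusted p of 0.0675 (edgeR) and 0.0536. Cish, which STAT5 induces downstream of growth hormone, had counts of 8, 5 and 4 against 48, 11 and 15 (5.02-fold lower, adjusted p = 0.0351, edgeR). It had 55.8, 42.9 and 40.8 CPM in WT CITCO libraries. In WT corn oil libraries it had 4.93, 2.12 and 1.21 CPM, which overlapped the hCAR/hPXR levels of 4.14, 2.89 and 3.34 CPM. The log2 fold change of Cish was -2.33, and -1.61 with Car KO/hPXR CITCO replicate 1 left out (adjusted p = 0.255, edgeR). Its call was also lost in the fit of the 6 libraries alone (0.0571), with thinned counts (0.0546) and with limma (0.123). Cish was the only call among 28 growth hormone and male-biased genes, whose median was 0.40. Food was freely available, and the time of day at which livers were taken was not given in the sources used here.

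The rest of the genes named by their adjusted p cover several functions. Serpina10, an inhibitor of clotting factor X, was 1.93-fold higher (648 ± 72.5 CPM against 336 ± 16.3 CPM, SD, n = 3, adjusted p = 0.0119 by edgeR). Rdh16, a retinol dehydrogenase, was 2.74-fold lower (adjusted p = 0.0114), and Cops4, a subunit of the COP9 signalosome, was 1.81-fold lower (adjusted p = 0.0242). In the fit of the 6 libraries alone the log2 fold change of Cops4 missed the threshold (adjusted p = 0.053, edgeR), as it did with thinned counts (0.0547). The long non-coding RNA Gm48795 was 4.25-fold lower (adjusted p = 0.0131). Called genes outside the naming rule, given here after their values were seen, were Gm26809, Hip1r, Tifa, Tspan4 and Pcp4l1, which rose, and Selenbp1 and Apol7a, which fell. Pcp4l1 ends 17.7 kb from Nr1i3, the gene altered in both groups. Among 28 tested genes within 1 Mb of Nr1i3 it was the only call, against 0.582% over all genes tested. It had 21, 23 and 8 counts in hCAR/hPXR and 0, 0 and 2 in Car KO/hPXR libraries, which is at least 4.49-fold higher (adjusted p = 0.0414, edgeR). None of 13 tested genes within 1 Mb of Nr1i2, which is altered alike in both groups, was called. At the share over all genes, 13 genes are too few for this to set the locus apart from that of Nr1i3.

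Of 34 cell cycle and DNA damage genes 12 were tested and none was called (median log2 fold change -0.07, from -1.40 for Gadd45g to 1.52 for Cdk4). In 3 of the 12 the groups did not overlap and hCAR/hPXR was higher, and in 0 it was lower, against 8.01% and 7.06% of all genes tested. Among the 3 was Cdk4, a kinase that drives entry into the cell cycle, with 10 ± 1.81 CPM against 3.29 ± 2.45 CPM (SD, n = 3, adjusted p = 0.353 by edgeR). Pcna, a clamp of replicating DNA, had 17.6, 12.1 and 9.17 CPM against 10.2, 18.4 and 18.1 CPM (adjusted p = 0.899, edgeR), and Ccnd1, a cyclin that CAR activators are known to raise, stood at 0.16 on the log2 scale (adjusted p = 0.92). Mki67 had at most 2.59 CPM in the 6 libraries and was not tested. The imprinted Dlk1-Meg3 genes summed to 0.579 to 3.63 CPM in hCAR/hPXR and 0 to 5.08 CPM in Car KO/hPXR libraries, and none of the 5 was tested.

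Each group was also set against WT mice given CITCO, which both comparisons share. In hCAR/hPXR mice 35 genes were called against WT CITCO (0.407% of those tested) and in Car KO/hPXR mice 22 (0.256%). Of the 26 genes higher with human CAR, 10 were also called higher in hCAR/hPXR than in WT mice, namely Cyp2b10, Cyp2c29, Cyp2c53-ps, Cyp2c55, Saa4, Mt1, Mt2, S100a8, Cxcl1 and Gm26809. For 2, Cyp2c50 and Cyp2c37, the Car KO/hPXR group was called lower than WT, and 14 were called in neither comparison. Of the 24 genes lower with human CAR, 4 were called lower in hCAR/hPXR than in WT mice given CITCO (Rdh16, Foxa2, Cish and Apol7a). Levels of Foxa2 and Cish in WT mice given corn oil overlapped those of hCAR/hPXR mice. For 5 the Car KO/hPXR group was called higher than WT mice given CITCO (Acss2, Arrdc3, Chrna4 and Aqp8 among them), and 15 were called in neither. In WT mice given corn oil Acss2 had 84.6, 123 and 94.2 CPM and Arrdc3 82.4, 68.4 and 65.2 CPM. Both overlapped the Car KO/hPXR levels. Levels of Aqp8 and Chrna4 in WT mice given corn oil lay below the Car KO/hPXR levels.

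**Figure D4:**
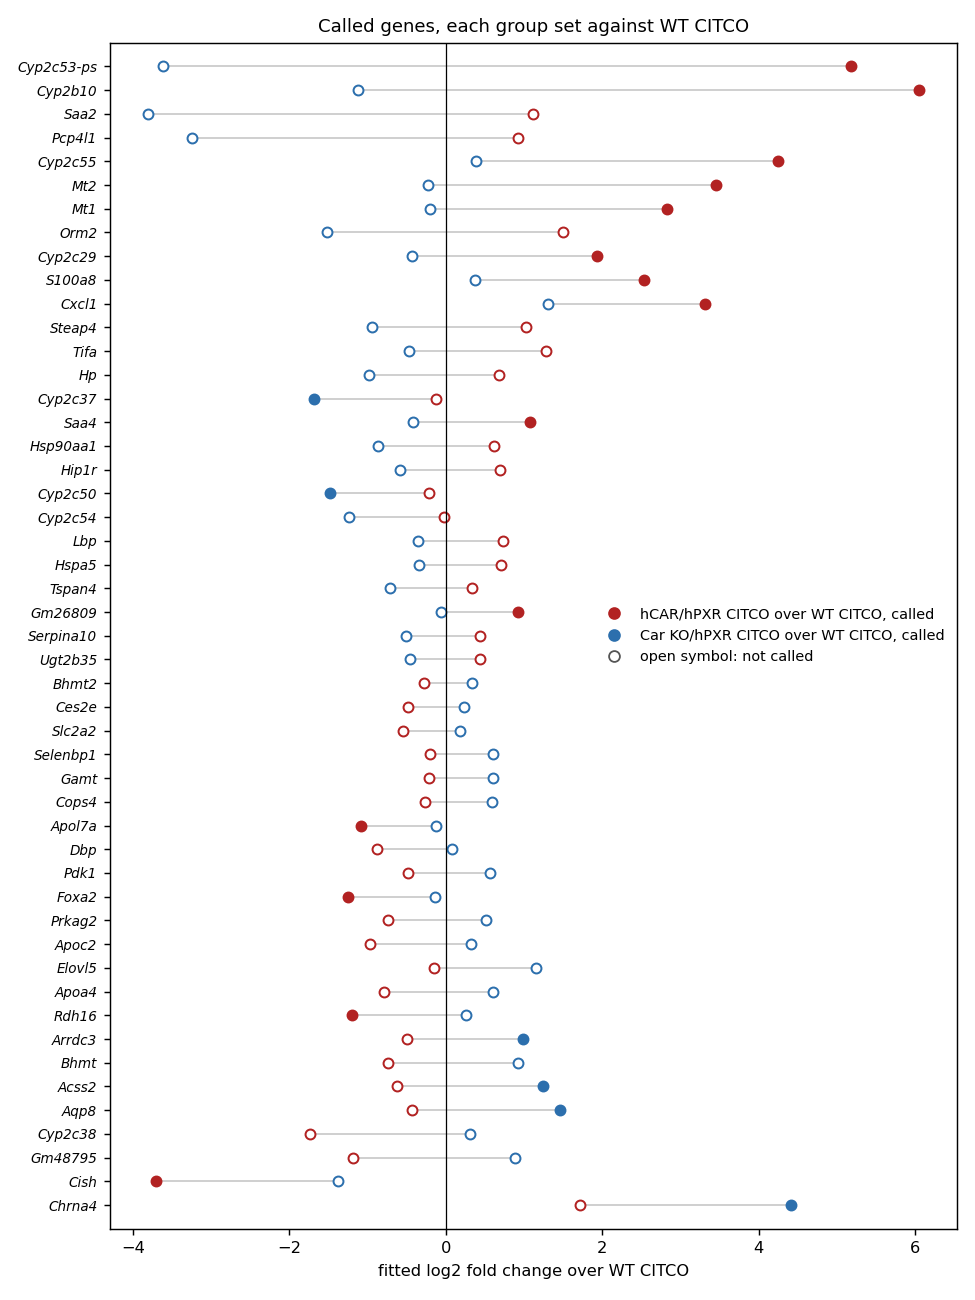
Called genes in order of their log2 fold change between the humanised groups, each shown by the fitted log2 fold change of hCAR/hPXR CITCO (red) and of Car KO/hPXR CITCO (blue) over WT CITCO. Filled points were called and open points were not. Cyp2b10, Cyp2c53-ps and Pcp4l1 had a group at the floor, so their fitted values are no bounds. The red points of Cyp2b10, Cyp2c53-ps and Cyp2c55 lie furthest right, and the filled blue point of Chrna4, at 4.42, stands apart.

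The calls differed in how they held when a library was left out. The calls of Cyp2b10, Cyp2c29, Cyp2c53-ps, Acss2, Bhmt, Arrdc3, Chrna4, Aqp8 and Apoa4 held with any 1 of the 6 libraries left out, with adjusted p-values of at most 0.0401 (edgeR). Saa4 and Hp lost their call only when Car KO/hPXR CITCO replicate 3 was left out (0.0622 for each), and Cyp2c50 lost it without replicate 1 or 3 of that group (up to 0.0622). Rdh16 and Gm48795 held in 4 of the 6 fits (adjusted p up to 0.0858). Hsp90aa1, Serpina10, Saa2, Cyp2c37 and Lbp held in 3 (up to 0.125), and Mt2, Steap4, Cops4, Prkag2, Gamt, Cxcl1, Hip1r, Tifa and Dbp in 2 (up to 0.257). Another 15, Hspa5, Mt1, S100a8, Cyp2c38, Cyp2c54, Cyp2c55, Orm2, Ugt2b35, Foxa2, Elovl5, Slc2a2, Cish, Pdk1, Apoc2 and Ces2e, held in 1 (up to 0.291), and Gm26809, Selenbp1, Tspan4, Apol7a, Pcp4l1 and Bhmt2 in 0 (up to 0.23). Of the 50 genes, 19, 30 and 17 stayed called without hCAR/hPXR CITCO replicate 1, 2 and 3, and 16, 35 and 9 when replicate 1, 2 or 3 of the Car KO/hPXR CITCO group was left out.

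The acute phase, lipid synthesis and heat shock lists kept the sign of their medians in these fits, while their counts of calls varied. Leaving out Car KO/hPXR CITCO replicate 3 left 0 acute phase genes called, and leaving out hCAR/hPXR CITCO replicate 2 left 15, with the list median between 0.83 (without hCAR/hPXR CITCO replicate 1) and 1.31. The median stayed between -1 and -0.62 for fatty acid synthesis, between -0.60 and -0.35 for cholesterol synthesis and uptake, and between 0.65 and 0.97 for the heat shock genes.

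**Figure D5:**
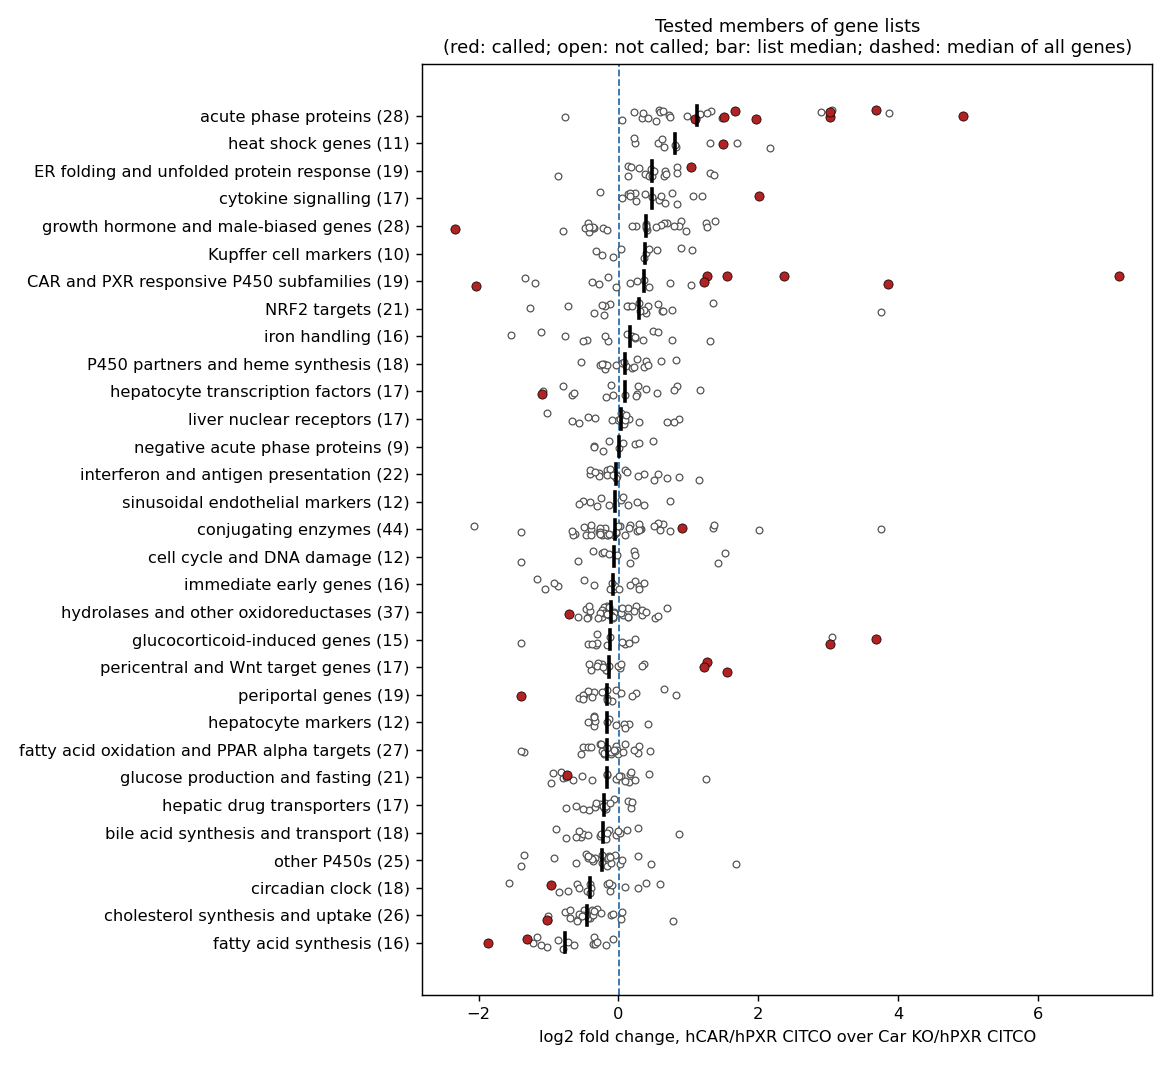
Log2 fold changes, hCAR/hPXR CITCO over Car KO/hPXR CITCO, of the tested members of each gene list with at least 8 of them (number in brackets), ordered by list median. Red points were called, open points were not, black bars are list medians and the dashed line is the median of all genes tested, 0.01. Acute phase and heat shock genes lie at the high end, with medians of 1.13 and 0.81, and fatty acid and cholesterol synthesis at the low end, with -0.76 and -0.45.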

How the data were processed

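Liver RNA of 12 male mice, 3 in each of 4 groups, was sequenced from the 3′ ends of transcripts. Per the labels and methods, reads were checked with FastQC 11.7, trimmed with Trimmomatic 36, aligned with STAR 2.5.2 to the Ensembl annotation of GRCm38 and counted with RSEM 1.3. The authors deposited expected counts for 51912 genes, of which 3.64% of values were not whole, and values on a log2-like scale from DESeq2's variance-stabilising transformation. No per-sample column was left unmatched (0). Replicates are the mice the labels number.

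Rounded counts were tested with edgeR 4.0.16 under R 4.3.3 (quasi-likelihood test, expression filter, TMM, 1 mean per group, all 12 libraries). Standard errors were derived from the fold change and F statistic. DESeq2 1.42.0, limma 3.58.1 on the deposited log2 values, other size factors and filters, a fit of 6 libraries, a replicate block, thinning and leaving out each library were alternatives. Sums over close relatives were added after the data were seen. The test was checked on simulated counts. Folds against a group with at most 3 counts in every library use 3 counts per library in that group. DESeq2 is the tool of the study, and edgeR the test used here for count data.

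The members and the 40 gene lists were chosen with earlier results of these data known, and lists are described by counts and medians without a test. Named genes are both receptors, each called member of a list, the 15 called genes of smallest adjusted p in each direction, a set of CAR targets and of acute phase, clock, fasting and cell cycle genes, and the lowest and highest member of lists of at least 5 tested genes with no call. Coordinates are from GENCODE M21 and promoters from RefSeq, both on GRCm38 but of other releases than the authors' annotation. Mitochondrially encoded genes were not analysed here. A called gene that the naming rule covers is not reported here.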

Additional observations from a re-analysis of the deposited data

How the results depend on the processing

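Against 50 genes called (26 higher, 24 lower), DESeq2's Wald test called 99 (54 higher and 45 lower, 43 of the 50 among them), with no filter on low counts 233 were called (138 and 95, 49 of the 50), and the other size factors, filter, fits, thinning and limma gave 43 to 58. Leaving out 1 library gave 10 to 58 calls, 3 to 35 of them higher and 7 to 24 lower. The fewest came with Car KO/hPXR CITCO replicate 3 left out (10), against 19 for Car KO/hPXR CITCO replicate 1, 19 for hCAR/hPXR CITCO replicate 3 and 23 for hCAR/hPXR CITCO replicate 1. The cause was not tested. With the replicate number as a block 53 genes were called (30 higher and 23 lower, 45 of the 50), and the calls of Cyp2c54 (log2 fold change of Cyp2c54 1.23, adjusted p = 0.0521), Ugt2b35 (log2 fold change of Ugt2b35 0.91, adjusted p = 0.0572), Pcp4l1 and Bhmt2 were among those lost. Residuals of same-numbered libraries correlated at 0.05, -0.04 and 0.02, so the numbers were not taken to pair the mice.

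No called gene that the naming rule covers changed sign under any alternative run. Signs of the other called genes were not compared. Signs changed among genes that were not called. With each library left out in turn, the log2 fold change ran from -0.02 to 0.33 for Abcc3, -0.04 to 0.71 for Acot1, -0.51 to 0.03 for Alas2, -0.12 to 0.38 for Ccnd1, -0.17 to 0.05 for Ephx1, -0.29 to 0.11 for Lrat, -0.50 to 0.85 for Per1 and -0.29 to 9.16 for Ugt1a1. Per1 was 0.03 with the replicate block, and the sum over all Ugt1a genes, in place of Ugt1a1, was -0.06. The 6 libraries compared, of 1167008 to 2012805 counts, put the floor at 1.55 to 2.5 CPM, and changes in genes near it were not detectable.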

Other observations

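Lists without a called gene were described by their lowest and highest members. Of 17 hepatic drug transporters tested 14 had log2 fold changes below 0 (median -0.20), from -0.75 for Slco1a4 to 0.20 for Slco1b2, and the bilirubin glucuronide exporters Abcc2 and Abcc3 had -0.19 and 0.14. Bile acid synthesis and transport (18 tested, median -0.22) ran from -0.90 for Cyp8b1, which had 96.4, 189 and 123 CPM in hCAR/hPXR and 236, 256 and 272 CPM in Car KO/hPXR libraries (adjusted p = 0.116, edgeR), to 0.86 for Cyp7b1. Cyp7a1, the rate-limiting enzyme of bile acid synthesis, had 24.9, 38.8 and 24.2 CPM against 62.9, 44.3 and 40.2 CPM (adjusted p = 0.448). Fatty acid oxidation and PPAR alpha targets (27 tested, median -0.16) included Acot1 at 0.45.

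NRF2 targets (21 tested, median 0.30) ran from -1.26 for G6pdx to 3.75 for Gsta1, and Gstm3 had 126, 135 and 291 CPM against 98.5, 63.5 and 50.9 CPM (adjusted p = 0.103, edgeR). Iron handling (16 tested, median 0.16) ran from -1.54 for Id1, a target of bone morphogenetic protein signalling, to 1.31 for the transferrin receptor Tfrc (adjusted p = 0.108). Immediate early genes (16 tested, median -0.08) ran from -1.17 for Dusp1 to 0.37 for Dusp6, and interferon and antigen presentation genes (22 tested, median -0.04) from -0.41 for Igtp to 1.15 for Ifi47. Of liver nuclear receptors 17 were tested, with Nr1i2 at the floor in both groups and Vdr at 0 in all 6 libraries. Thra stood at -0.66 on the log2 scale and Ahr, the dioxin receptor, at 0.86 (adjusted p = 0.197). Negative acute phase proteins (9 tested, median 0.01) ran from -0.35 for Ttr to 0.49 for Apom.

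Red blood cell markers (5 tested, none called) summed to 1860 to 2190 CPM in hCAR/hPXR and 2140 to 3420 CPM in Car KO/hPXR libraries, sinusoidal endothelial markers to 317 to 377 CPM against 392 to 417 CPM, and stellate cell markers to 313 to 351 CPM against 231 to 315 CPM. Pericentral and Wnt target genes (17 tested) had no call beside the 3 Cyp2c genes, and Glul stood at -0.39 on the log2 scale (adjusted p = 0.541). Of 19 periportal genes Apoa4 alone was called.

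Single regulators and acute phase genes that were not called are given by their levels. Hhex, a homeobox factor of liver, had 25.9, 17.9 and 35.9 CPM in hCAR/hPXR and 69.3, 22.5 and 72.3 CPM in Car KO/hPXR libraries (adjusted p = 0.274, edgeR), which overlapped, and Onecut1, another hepatocyte factor, had 37.3, 19.7 and 26.7 CPM against 47.7, 41.7 and 43.5 CPM (adjusted p = 0.487). Nr1d1, a repressor of the clock, had 46.1, 55.0 and 100 CPM against 88.3, 144 and 126 CPM (adjusted p = 0.257). Crp and Fgg, an acute phase pentraxin and a fibrinogen chain, stood at 0.58 and 0.33 on the log2 scale (adjusted p = 0.181 and 0.527), and Cyp2a5 at 0.37 (adjusted p = 0.766). Per1 and Ugt1a1 had adjusted p-values of 0.962 and 0.906, and Arntl and Meg3 were too low to be tested.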
